A study of Mus musculus with 672 samples.

Results

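The 38 genes described here carry out DNA replication or time the entry into S phase. They were chosen by symbol for their known function, and stand among the 46078 genes of the count table. All 38 were present in the table, and all 38 passed the filter on low counts. By role they fall into the MCM helicase (6 genes), origin licensing and helicase activation (6), the sliding clamp and its loader (5), polymerases and primase (6), nucleotide supply (3), lagging strand joining and single-strand binding (3), chromatin and histone supply (3), and S phase control and checkpoint (6).

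Replication starts when the origin licensing factors Cdc6 and Cdt1 load the MCM helicase onto DNA in G1, and it begins to unwind DNA once Cdc45 and the GINS complex join it in S phase. Polymerase alpha and primase then lay down primers, the clamp loader RFC places the PCNA ring at each primer, and polymerases delta and epsilon extend it. Transcription factors of the E2F family, released by G1 and S phase cyclin-dependent kinases, switch on many of these genes together, and so their transcripts are widely used to mark cells near or in S phase. Early lymphoid progenitors of the bone marrow alternate between quiet and dividing states, and B lineage progenitors divide fast at later stages.

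The transcripts were read in single bone marrow cells of 4 mice aged 7 weeks on a C57BL6/129Ola background. Control mice 18218 and 18220 were Mbd3flox/flox and null mice 18217 and 18219 were Mbd3del/del, and the sources used here do not say what drove the deletion. Mbd3 encodes a subunit of the chromatin remodelling complex NuRD. From each mouse 3 sorted populations were studied, all Lin- Sca-1+ c-Kit+ Flt3hi B220-: lymphoid-primed multipotent progenitors (LMPP, IL-7Ra-), all-lymphoid progenitors (ALP, IL-7Ra+ Ly6D-) and B-biased lymphoid progenitors (BLP, IL-7Ra+ Ly6D+).

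Quality limits retained 561 cells. They removed 111, mainly (86) from the ALP libraries belonging to mice 18219 and 18220. Adding up the kept cells of each mouse and population gave 12 libraries of 53741264 to 137497554 counts. A level is given as CPM, the counts of a gene relative to the TMM-scaled size of its library, and each group holds 2 mice. The median cell had fewer counts in null (1004760 to 1285444) than in control libraries (1586214.5 to 2340592). Mbd3 stood at 48.1 to 191 CPM in control libraries. It was at 24.7 CPM in the null LMPPs of mouse 18219 and at 0.189 to 2.88 CPM in all other null libraries. The part of these Mbd3 reads in the levels of that LMPP library was not tested. Transcripts of the gates that separate the populations followed the labels, with Il7r at 3.72 to 26.7 CPM in LMPP and 546 to 909 CPM in ALP and BLP, and Ly6d at 1501 to 3749 CPM in BLP against 36.2 to 133 CPM in ALP. Transcripts of the shared gates were not all level. Kit ran from 364 to 549 CPM in LMPP, 61.85 to 137 CPM in ALP and 89.7 to 137 CPM in BLP. Ly6a (Sca-1) ran from 259 to 501, 62.15 to 403 and 87.95 to 303.5 CPM in the same order. Flt3 was at 583.5 to 1019 CPM and Ptprc at 309 to 558.5 CPM over all libraries. Summed over 7 early B markers, null ALPs reached 579 and 968 CPM against 198 and 117 CPM in control ALPs. The same sums were 124 and 164 CPM against 112 and 67.8 CPM in LMPPs, and 2079 and 1756 CPM against 1205 and 1578 CPM in BLPs. In LMPPs most of each sum was Cd79b (119 and 153 CPM in null, 104.5 and 61.2 CPM in control mice). Rag1 was lower in null LMPPs (0.727 and 0.894 CPM against 2.02 and 3.78 CPM). In BLPs Igll1 (646 and 194 CPM against 13.4 and 268.5 CPM) and Rag1 (191 and 348 CPM against 282 and 284 CPM) overlapped. Sums over 8 myeloid markers were also higher in null mice. They were 1501 and 2138 CPM against 1240 and 1371 CPM in control LMPPs, 1026 and 958 CPM against 634 and 335 CPM in ALPs, and 417 and 443 CPM against 263 and 154 CPM in BLPs. The myeloid markers did not all move together. Mpo and Ctsg were higher without overlap in each population, with Mpo at 881 and 1357 CPM against 498.5 and 385 CPM in LMPPs. Lyz2 was lower without overlap in null LMPPs (253 and 460 CPM against 480 and 577 CPM). It was also lower in null ALPs (58.3 and 104 CPM against 190 and 108 CPM). Prtn3 overlapped in LMPPs (39.6 and 62.7 CPM against 60.6 and 263 CPM). Erythroid and megakaryocyte markers (7 genes) summed to 61.1 and 68.2 CPM in null and 11.7 and 37.0 CPM in control LMPPs, and 5 macrophage and stroma markers to 15.1 CPM at most in all libraries. The part of these other markers in the results on replication genes was not tested.

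Promoter sequence was available for 31 of the 38 genes, as windows from 250 bases before to 50 bases after the RefSeq start site on GRCm38.p6 (35 windows, since some genes have more than 1 start). Mcm4, Gins1, Gins2, Rfc2, Pole, Tipin and Ccne2 had none. The windows of 3 helicase genes and of Rpa2 are shown, because Mcm6 and Rpa2 carry the results that follow and the 3 helicase windows hold an E2F-type motif. Each is written 5′ to 3′ on the gene's own strand. Capitals mark matches to TTTCCCGC, TTTCGCGC, TTTGCCGC or TTTGGCGC on either strand, joined where matches overlap. The windows lie at chr1:128359656-128359955 (Mcm6, minus strand), chr8:75109259-75109558 (Mcm5, plus strand), chr1:20820263-20820562 (Mcm3, minus strand) and chr4:132768110-132768409 (Rpa2, plus strand).
Mcm6: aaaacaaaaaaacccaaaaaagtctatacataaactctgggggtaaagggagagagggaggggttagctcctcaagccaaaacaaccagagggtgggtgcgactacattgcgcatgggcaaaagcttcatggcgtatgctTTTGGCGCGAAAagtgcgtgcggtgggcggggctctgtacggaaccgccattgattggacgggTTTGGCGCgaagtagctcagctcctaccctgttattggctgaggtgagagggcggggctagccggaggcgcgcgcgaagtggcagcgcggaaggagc
Mcm5: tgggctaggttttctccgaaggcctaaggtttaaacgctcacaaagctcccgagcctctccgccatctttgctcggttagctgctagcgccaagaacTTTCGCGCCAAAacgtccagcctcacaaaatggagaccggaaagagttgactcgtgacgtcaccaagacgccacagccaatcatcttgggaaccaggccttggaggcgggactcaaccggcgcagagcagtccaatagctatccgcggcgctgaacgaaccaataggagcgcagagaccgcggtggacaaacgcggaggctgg
Mcm3: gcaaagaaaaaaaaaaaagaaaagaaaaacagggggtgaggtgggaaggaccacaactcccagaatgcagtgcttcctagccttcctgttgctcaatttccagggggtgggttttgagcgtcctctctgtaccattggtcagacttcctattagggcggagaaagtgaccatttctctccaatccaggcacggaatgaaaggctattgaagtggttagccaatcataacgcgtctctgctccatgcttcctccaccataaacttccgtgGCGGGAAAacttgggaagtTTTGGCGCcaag
Rpa2: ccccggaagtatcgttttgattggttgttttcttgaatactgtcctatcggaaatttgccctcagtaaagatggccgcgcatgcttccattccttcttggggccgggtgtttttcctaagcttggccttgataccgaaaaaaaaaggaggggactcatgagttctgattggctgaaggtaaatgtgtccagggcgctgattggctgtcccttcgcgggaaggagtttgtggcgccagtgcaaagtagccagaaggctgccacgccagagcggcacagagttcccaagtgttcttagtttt

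The Mcm6 window held 3 matches, of which a pair overlapped, the Mcm5 window an overlapping pair and the Mcm3 window 2 separate matches after the start site. Within the Rpa2 window none of these letters occurred, which says nothing about whether an E2F factor binds there. Over all windows of the list, 13 of 35 (37.1%) held at least 1 match, against 744 of 32851 windows (2.27%) in the whole promoter table. The 13 genes were Mcm3, Mcm5, Mcm6 and Mcm7 of the helicase, Cdc6 and Cdt1 of licensing, Pola1, Pold1 and Pold3 of the polymerases, the clamp loader gene Rfc3, the ligase gene Lig1, the checkpoint adaptor gene Clspn and the ubiquitin ligase gene Dtl. The common CCAAT box, searched on both strands, was present in 19 of 35 windows (54.3%) and in 37.4% of all windows. A match is a description of letters and not a measured binding site.

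Summed over the 38 genes, the replication level was lowest in LMPPs, apart from 1 library. Control LMPPs stood at 4310 CPM (mouse 18218) and 4798 CPM (18220), control ALPs at 7269 and 5464 CPM, and control BLPs at 6718 and 6852 CPM. Null LMPPs stood at 7262 CPM in mouse 18217 and 3671 CPM in mouse 18219, so the pair spanned more than the whole control range of LMPPs. Null ALPs reached 6775 and 8149 CPM, and null BLPs 7394 and 5797 CPM (mice 18217 and 18219). As means these are 4554 ± 345 and 5466 ± 2539 CPM in control and null LMPPs, 6367 ± 1276 and 7462 ± 972 CPM in ALPs, and 6785 ± 94.5 and 6595 ± 1129 CPM in BLPs (SD, n = 2 each). In LMPP and BLP the null mice lay on either side of both controls, and in ALP the control mouse 18218 lay between the null mice, so the genotypes overlapped in every population. In summed libraries, fewer cells with a transcript and less of it per cell cannot be told apart.

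**Figure D1:**
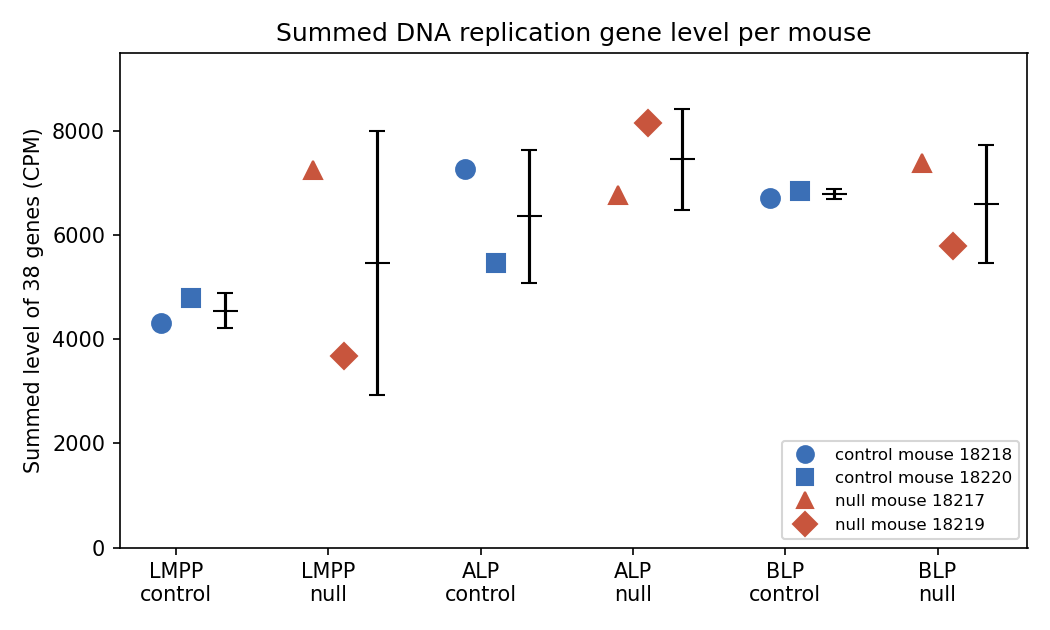
Summed level of the 38 DNA replication genes (CPM, y axis) in each of 12 libraries, by population and genotype, with 1 symbol per mouse and the mean ± SD of 2 mice in black beside each pair. The 2 null LMPP libraries, at 7262 and 3671 CPM, lie above and below both control LMPP libraries.

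The step from LMPP to ALP was the one in which most replication genes differed in the same direction. In control mice 35 of the 38 were higher in ALP and 3 lower (Chaf1b, Rfc2 and Rfc4), with a median log2 fold change of 0.55 against 0 over all 19903 genes. Both control ALP libraries exceeded both control LMPP libraries in 24 of 38 genes, where 20% of all genes did so, and the reverse held in 0 (19.9% of all genes). One gene, Rpa2, passed the edgeR test at an adjusted p under 0.05, where 0.176% of all genes were called higher and 0.0955% lower. An unadjusted p under 0.05 was reached by 6 in the higher direction (4.94% of all genes) and 0 in the lower (3.82%). DESeq2 called 2 (Rpa2 and Clspn), where it called 4.62% of all genes in either direction, and limma-voom called Rpa2, where it called 0.482%. Without the largest single cell of each gene in each library, the same 24 genes stayed apart. In null mice 37 of 38 were higher in ALP, with a median of 0.50, and 14 did not overlap (19.8% of all genes). None of these passed the edgeR test (0.156% of all genes called higher), 3 were higher at an unadjusted p under 0.05 (5.4% of all genes), and DESeq2 and limma-voom called 0, where they called 4.65% and 0.136% of all genes in either direction. These medians depend on single mice: without mouse 18218 the control median was 0.31 (26 higher, 12 lower), without 18220 it was 0.83, without 18217 the null median was 1.35, and without 18219 it was −0.043 (17 higher, 21 lower).

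**Figure D2:**
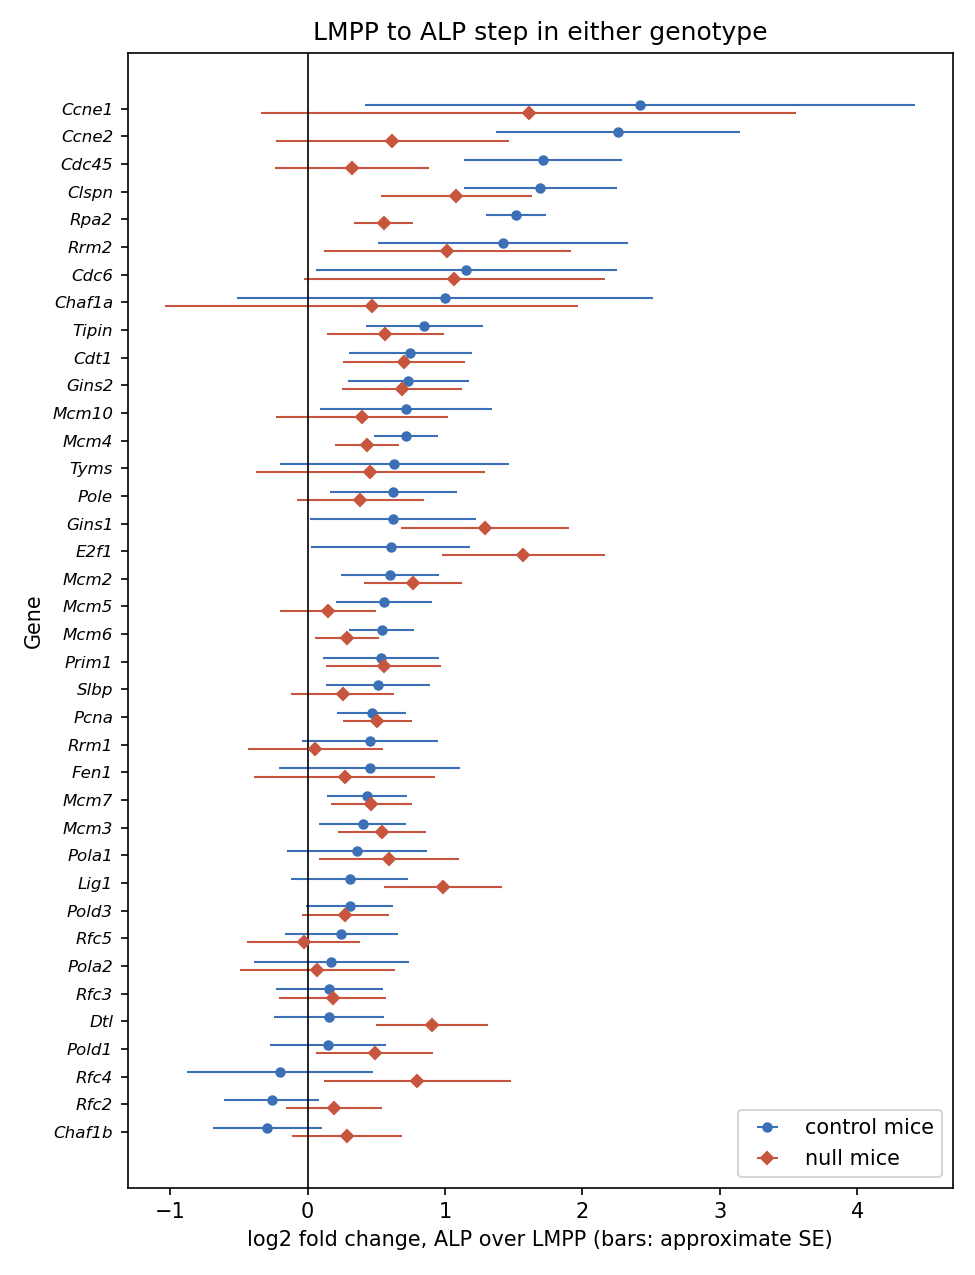
Log2 fold change of ALP over LMPP (x axis, with approximate SE) for each of the 38 genes (y axis, sorted by the control value) in control mice (circles) and null mice (diamonds). Control values are above 0 for 35 genes and null values for 37, and the error of Rpa2 (0.22) is the smallest of the control values.

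From ALP to BLP the genes had no common direction. In control mice 24 were higher and 14 lower in BLP (median 0.16), with 9 higher and 4 lower without overlap (16.9% and 19.8% of all genes). In null mice 15 were higher and 23 lower (median −0.12), with 4 higher and 7 lower without overlap (16% and 19.1% of all genes). No replication gene passed the edgeR test in either genotype, where 0.00502% and 0% of all genes were called higher. An unadjusted p under 0.05 was reached in control mice by 0 genes higher and 1 lower (3.46% and 4.04% of all genes), and in null mice by 1 higher and 2 lower (2.54% and 3.86%). DESeq2 called 0 in both, where it called 2.99% and 2.25% of all genes in either direction, and limma-voom called 0 in both (0.01% and 0% of all genes). Both medians changed sign with each cell thinned to equal counts before summing, to −0.086 in control and 0.083 in null mice (25 higher, 13 lower), and the null median was 0.019 on dropping the ALPs of mice 18219 and 18220. Of the 9 genes higher without overlap in control BLPs, 1 stayed apart without the largest single cell of each gene in each library, and of the 7 lower in null BLPs all 7 did.

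Loss of Mbd3 gave no called replication gene in any population by edgeR. In LMPP 26 genes were higher and 12 lower in null mice (median 0.27), with 3 higher and 1 lower without overlap (16.2% and 17.8% of all genes). In ALP 28 were higher and 10 lower (median 0.20), with 10 higher and 2 lower without overlap (17.1% and 17% of all genes). In BLP 21 were higher and 17 lower (median 0.06), with 6 higher and 7 lower without overlap (16.3% and 17.1% of all genes). Summed over populations 28 were higher and 10 lower (median 0.16), with 10 higher and 2 lower without overlap (18.6% and 18.3% of all genes). The shares of all genes called higher by edgeR were 0%, 0.00502%, 0.00502% and 0% in these 4 comparisons, in the same order. At an unadjusted p under 0.05, LMPP had 1 replication gene higher and 0 lower (3.14% and 3.62% of all genes), ALP 0 and 0 (2.51% and 1.99%), BLP 0 and 1 (4.33% and 4.5%), and populations summed 2 and 0 (3.34% and 3.7%). DESeq2 called 1 gene in LMPP (Rpa2) and 0 elsewhere, where it called 2.46%, 1.39%, 4.02% and 2.83% of all genes in either direction in the same order. The share of all genes that limma-voom called was 0% in each, and it called 0 replication genes. Without the largest single cell of each gene in each library, 2 of the 3 higher and 0 of the 1 lower stayed apart in LMPP, 7 of 10 and 1 of 2 in ALP, and 5 of 6 and 4 of 7 in BLP. In LMPP the median was −0.41 without mouse 18217 (7 higher, 31 lower) and 0.64 without mouse 18219 (36 higher, 2 lower). In BLP it was −0.16 without mouse 18217 and 0.24 without 18219, and in ALP it was −0.070 with cells thinned to equal counts and −0.12 on dropping the ALPs of mice 18219 and 18220.

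Whether the genotype effect differed between populations was tested directly, and edgeR, DESeq2 and limma-voom each called 0 replication genes. For ALP minus LMPP 0 were higher and 1 lower at an unadjusted p under 0.05 (2.99% and 2.26% of all genes), and for BLP minus ALP 0 and 1 (3.07% and 3.31%). DESeq2 called 1.2% and 1.76% of all genes in these tests in either direction, and limma-voom 0% and 0.00502%.

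**Figure D3:**
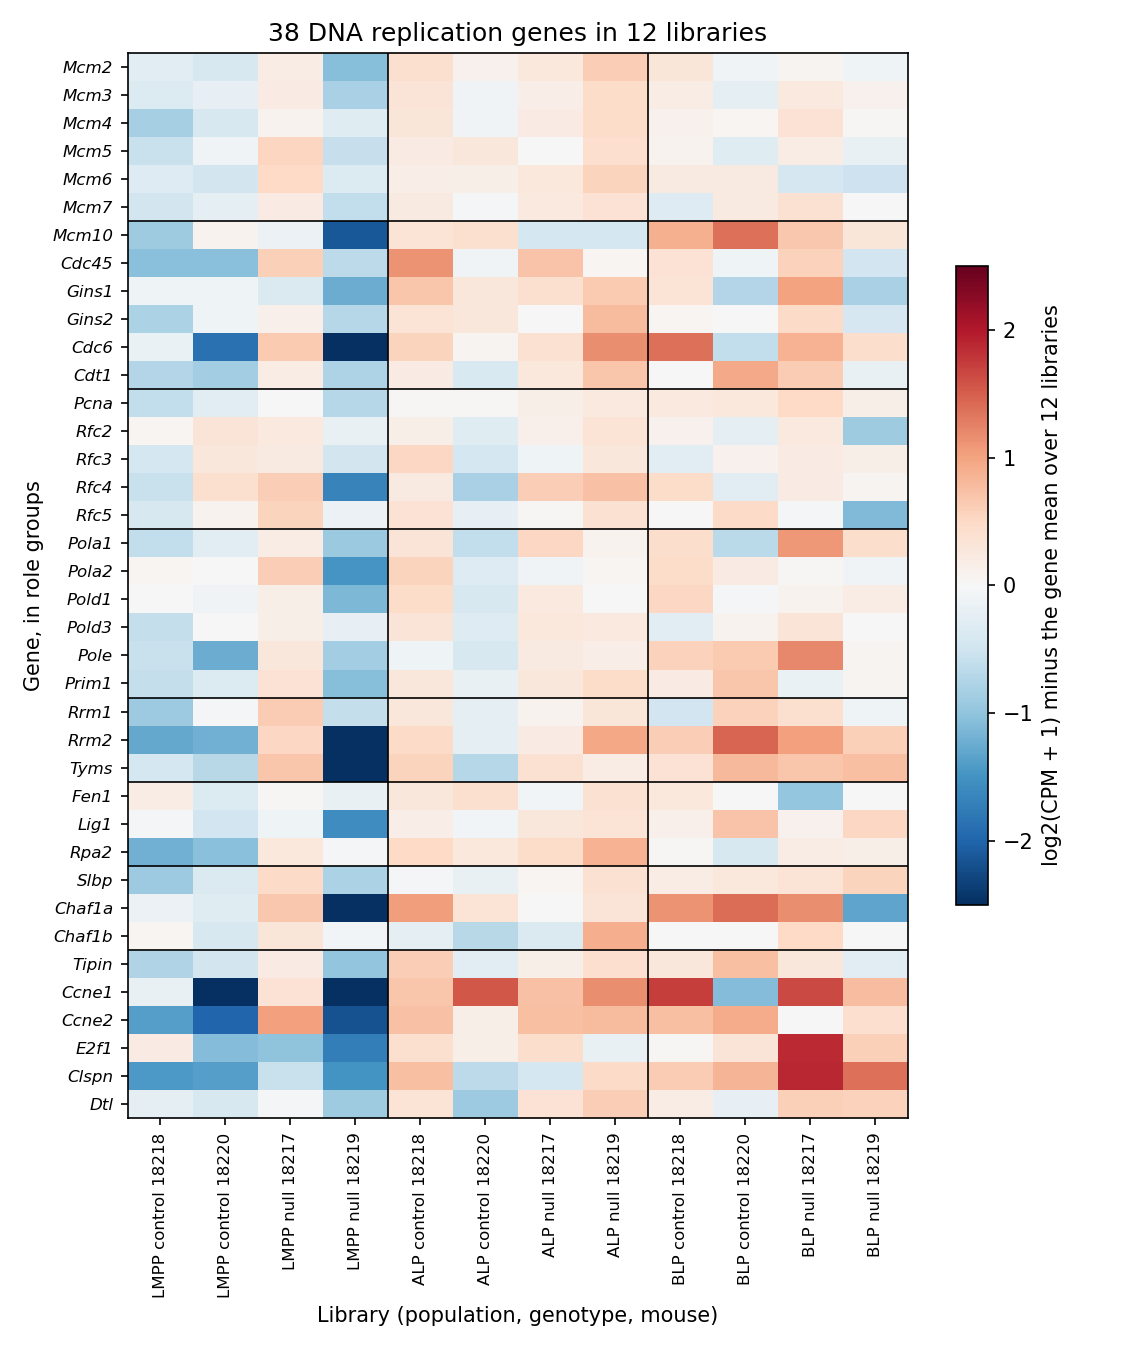
Level of each of the 38 genes (rows, in role groups separated by lines) in each of 12 libraries (columns), as log2(CPM + 1) minus the gene's mean over the libraries, with colours ending at −2.5 and 2.5. The LMPP library of null mouse 18219 is below the mean in 38 of 38 rows, and the LMPP library of null mouse 18217 is above it in 32.

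The 6 genes of the MCM helicase, the ring that unwinds DNA at the fork, were each higher in both control ALP libraries than in both control LMPP libraries. Together they summed to 1686 and 1816 CPM in control LMPPs, 2856 (18217) and 1536 CPM (18219) in null LMPPs, 2686 and 2382 CPM in control ALPs and 2603 and 3186 CPM in null ALPs. Their BLP sums were 2485 and 2309 CPM in control and 2358 and 2013 CPM in null mice, the one population in which neither null library exceeded the higher control library. Per kilobase of exon, Mcm6 had the highest mean of all 38 genes over 12 libraries (161 CPM per kb, 109 to 228.5), and Mcm2 the lowest of the ring (43 CPM per kb). The length used is that of all annotated exons of a gene (6956 bases for Mcm2, 3589 for Mcm4), so such ranks depend on it. In mean CPM, Mcm2 was lowest of the ring in null LMPPs and null BLPs only. In control LMPPs it was at 227.5 CPM against 174 CPM of Mcm4.

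Mcm6 was the helicase gene whose null and control BLPs stood farthest apart. It was at 583 and 527 CPM in control LMPPs, 812 and 802 CPM in control ALPs and 849 and 854 CPM in control BLPs (mice 18218 and 18220). In null mice 18217 and 18219 it was at 1022 and 573 CPM in LMPPs, 879 and 1066 CPM in ALPs and 546 and 509.9 CPM in BLPs. Both null BLP libraries were thus below all other ALP and BLP libraries. The log2 fold change of null over control BLPs was −0.69 ± 0.24 (± approximate SE, edgeR p = 0.0176 and adjusted p = 0.544), and that of null BLPs over null ALPs −0.88 ± 0.24 (edgeR p = 0.00508 and adjusted p = 0.674), so neither passed. With every cell thinned to equal counts the BLP difference was −0.16 (edgeR adjusted p = 0.918), while over the other alternatives it lay between −0.74 and −0.65. The test of whether the genotype effect differs between BLP and ALP gave −0.96 ± 0.33 (edgeR p = 0.0189, adjusted p = 0.776), and −0.14 with thinned cells. Reads of Mcm6 were found in every kept cell, and the largest single cell held 13.2% to 28.1% of them in the BLP libraries. Mcm6 lies on chromosome 1 (128331590 to 128359664, minus strand), and none of its exon bases overlap another annotated gene.

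For the other helicase genes the BLP difference lay between −0.15 and 0.22 on the log2 scale. Mcm4 stood at 149 and 200.3 CPM in control LMPPs against 324 and 248 CPM in control ALPs, a log2 fold change of 0.71 ± 0.23 (edgeR p = 0.0142, adjusted p = 0.427). Null LMPPs had 282 and 213 CPM of it, above both control LMPPs (0.50 ± 0.23, edgeR adjusted p = 0.737), though these overlapped without the largest cell of each library, and null ALPs 304.5 and 362 CPM. Its BLP values were 284 and 271 CPM in control and 339 and 269 CPM in null mice. Mcm2 ran from 137 to 326.5 CPM in the 4 LMPP libraries, 309 to 444 CPM in ALP and 268 to 357 CPM in BLP. Mcm3 ran from 201 to 408, 332 to 491 and 302 to 419 CPM in the same order. Mcm5 had 230.2 to 497, 345 to 462 and 281 to 390.4 CPM, and Mcm7 had 182 to 321.5, 270.5 to 362 and 225 to 363.5 CPM. In LMPP the lowest value of Mcm2, Mcm3, Mcm5 and Mcm7 was that of a null mouse, 18219, and the highest that of the other null mouse, 18217.

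The licensing and helicase activation genes summed to 190 to 450.1 CPM in LMPP libraries, 386 to 588 CPM in ALP and 334 to 619 CPM in BLP. Cdc45, which joins the helicase at firing, was at 29.2 and 29.3 CPM in control LMPPs and at 134 and 57.7 CPM in control ALPs, 1.71 ± 0.58 on the log2 scale (edgeR p = 0.0165, adjusted p = 0.447). In null LMPPs it stood at 93.1 and 38.8 CPM and in null ALPs at 101 and 63.4 CPM, which overlap. Gins1, a GINS subunit, was the one gene lower without overlap in null LMPPs, with 37.7 and 20.1 CPM against 44.8 and 45.1 CPM (−0.64 ± 0.60, edgeR adjusted p = 0.899), and this separation was lost without the largest cell of each library. Mcm10, a scaffold of the activated helicase, was lower without overlap in null ALPs (23.1 and 23.0 CPM against 40.4 and 42.3 CPM) and in null BLPs (51.2 and 39.3 CPM against 60.0 and 83.7 CPM). In the BLPs of control mouse 18220, however, 1 cell held 69.1% of the Mcm10 reads, and without the largest cell of each library Mcm10 was at 39.7 and 25.9 CPM in control and 40.4 and 21.9 CPM in null BLPs, which overlap. In ALP the genotypes stayed apart without it. Its difference over populations summed was −0.74 ± 0.29 (edgeR p = 0.0609, adjusted p = 0.719). Cdt1, the MCM loading factor, was at 73.6 to 155 CPM in LMPPs, 103 to 219 CPM in ALPs and 119 to 261 CPM in BLPs, while Cdc6, its partner, ran from 4.49 to 102 CPM over all libraries. Gins2 was at 38.9 to 118 CPM, and 67.3% of its exon bases lie opposite Gse1.

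Pcna, the sliding clamp, stood at 125 and 156 CPM in control LMPPs, 194 CPM in both control ALPs, and 227 and 228 CPM in control BLPs. In null mice it was at 193 and 116 CPM in LMPPs, 212 and 227 CPM in ALPs, and 272 and 213 CPM in BLPs. Its order over populations was LMPP, ALP, BLP in the control mice without overlap, but neither step passed the test, and ALPs and BLPs overlapped without the largest cell of each library. A further limit is that 2 annotated Pcna pseudogenes could share its reads. Of the clamp loader genes, Rfc2 was not higher at the LMPP to ALP step, with 421 and 507 CPM in control LMPPs and 445 and 329 CPM in control ALPs (−0.26 ± 0.35). Rfc4 was at 66.0 and 128 CPM in control LMPPs and 114 and 54.9 CPM in control ALPs, while null ALPs had 150 and 162 CPM (0.89 ± 0.68 over control, edgeR adjusted p = 1). Rfc5 was lower without overlap in null BLPs (109.6 and 51.7 CPM) than in control BLPs (114 and 158 CPM), at −0.76 ± 0.41 (edgeR p = 0.103, adjusted p = 0.618). Rfc3 lay between 99.0 and 197 CPM in all libraries.

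The 6 polymerase and primase genes summed to 484 and 513 CPM in control LMPPs, 764 and 321.5 CPM in null LMPPs, 780 and 481 CPM in control ALPs, and 743.5 and 704 CPM in null ALPs. In BLPs they summed to 796.5 and 732 CPM in control and 875 and 678.5 CPM in null mice. Pole, the leading strand polymerase, was higher in control BLPs (134.5 and 141 CPM) than in control ALPs (83.2 and 67.9 CPM), at 0.87 ± 0.46 (edgeR p = 0.0958, adjusted p = 0.684). In the BLPs of control mouse 18220, 1 cell held 65.96% of the Pole reads, and without the largest cell of each library Pole was at 112 and 48.0 CPM in control BLPs and 73.4 and 53.8 CPM in control ALPs, which overlap. Prim1, the primase that starts each primer, stood at 155 and 217 CPM in control BLPs and 119 and 139 CPM in null BLPs (−0.53 ± 0.42, edgeR adjusted p = 0.757). Pola1 of polymerase alpha had 150.4 and 68.9 CPM in control and 235 and 149 CPM in null BLPs, which overlap. Pola2, Pold1 and Pold3, other subunits of polymerases alpha and delta, ran from 34.5 to 151, 50.5 to 158 and 50.9 to 97.3 CPM over all libraries. The lowest value of Pola2 and Pold1 was that of the null LMPPs of mouse 18219.

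In each of the 3 nucleotide supply genes, as in every other replication gene of the list, the null LMPPs of mouse 18217 exceeded those of mouse 18219. Rrm2, the S phase limited subunit of ribonucleotide reductase, stood at 40.2 and 42.7 CPM in control LMPPs and at 142 (18217) and 10.6 CPM (18219) in null LMPPs. It was at 139 and 83.2 CPM in control ALPs, 114 and 194 CPM in null ALPs, 152 and 274 CPM in control BLPs, and 202 and 149 CPM in null BLPs. Tyms, thymidylate synthase, likewise was at 141 and 13.5 CPM in the null LMPPs and at 63.8 and 53.0 CPM in control LMPPs. A single cell held 87.6% of the Tyms reads in the BLPs of control mouse 18220, and a Tyms pseudogene is annotated. Rrm1, the large subunit of the reductase, lay between 111 and 321 CPM.

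Rpa2, a subunit of the complex that coats single-stranded DNA behind the helicase, was the 1 replication gene past the edgeR threshold. It stood at 95.6 and 105 CPM in control LMPPs (mice 18218 and 18220), and rose to 311 and 265 CPM in control ALPs. In control BLPs it was at 223 and 165 CPM. In null mice 18217 and 18219 it was at 262 and 216 CPM in LMPPs, 301 and 402 CPM in ALPs, and 249 and 242 CPM in BLPs. The control LMPPs were therefore the 2 lowest of the 12 libraries, and both null LMPP libraries lay well above them. The rise in control mice was 2.86-fold, 1.52 ± 0.22 on the log2 scale (edgeR p = 8.14e-05, adjusted p = 0.0360). The call did not hold with mouse as a replicate block (1.51, adjusted p = 0.102), nor without any 1 of the 4 mice (1.32 to 1.68, adjusted p = 0.166 to 0.699), nor on dropping the ALPs of mice 18219 and 18220 (1.62, adjusted p = 0.279), all by edgeR. It held in the 6 other alternatives, with adjusted p between 7.77e-08 (DESeq2) and 0.0359 (all cells kept, edgeR).

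Between null and control LMPPs, Rpa2 differed by 1.25 ± 0.22 (2.38-fold, edgeR p = 0.00031, adjusted p = 0.371), and DESeq2 gave an adjusted p of 5.92e-05. Over all alternatives this difference stayed between 1.10 and 1.38, with adjusted p from 5.92e-05 to 0.949. Because both comparisons use the same 2 control LMPP libraries, they are not separate pieces of evidence. From LMPP to ALP in null mice Rpa2 was 0.55 ± 0.21 higher (edgeR p = 0.0299, adjusted p = 0.508). The test of whether the genotype effect differs between ALP and LMPP gave −0.96 ± 0.30 (edgeR p = 0.0116, adjusted p = 0.941), which did not pass. From ALP to BLP it was lower in both genotypes, by −0.57 ± 0.21 in control and −0.52 ± 0.21 in null mice (edgeR adjusted p = 0.623 and 0.766). At equal depth, Rpa2 was read in 53.2% of the control LMPPs of each mouse, in 68.9% and 57.45% of null LMPPs, and in 82.4% and 67.5% of control ALPs. Rpa2 lies on chromosome 4 (132768332 to 132778752, plus strand), and none of its exon bases overlap another annotated gene.

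Lig1, the ligase that joins lagging strand fragments, was at 135 and 49.5 CPM in null LMPPs and 178 and 188 CPM in null ALPs (0.98 ± 0.43, edgeR p = 0.0481, adjusted p = 0.568). Control LMPPs had 141 and 105.5 CPM and control ALPs 164 and 141 CPM of it, which overlap. Fen1, the flap nuclease that trims those fragments, was the gene lowest per kilobase (2.79 CPM per kb), at 2.85 to 8.94 CPM in all libraries. Of its exon bases 84.2% lie opposite Gm10143 and Tmem258, and since the strand setting of the counting is not given, its level is uncertain.

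Among the chromatin genes, Chaf1b, a subunit of the CAF-1 histone chaperone, had its highest value in the null ALPs of mouse 18219. It was at 112 and 82.0 CPM in control ALPs and at 103 and 249 CPM in null ALPs (0.86 ± 0.40, edgeR p = 0.0611, adjusted p = 1), and the sign turned (−0.11) on dropping the ALPs of mice 18219 and 18220. Slbp, which binds the stem loop of histone transcripts, was higher without overlap in null ALPs (164 and 207.5 CPM against 154.5 and 139.9 CPM) and in null BLPs (201 and 235 CPM against 179 and 191 CPM). Over populations summed the Slbp difference was 0.37 ± 0.13 (edgeR p = 0.0417, adjusted p = 0.689). Chaf1a, the large CAF-1 subunit, had 12 reads in all (0.206 CPM) in the null LMPPs of mouse 18219 and 18.6 to 62.2 CPM in the control libraries, and 52.5% of its exon bases lie opposite Ubxn6.

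Of the control and checkpoint genes, Ccne1, Ccne2, E2f1 and Clspn were read in 12.7% to 23.7% of cells at equal depth. E2f1, an activating E2F factor, was at 13.7 and 7.88 CPM in null LMPPs and 39.1 and 24.9 CPM in null ALPs (1.57 ± 0.59, edgeR p = 0.0273, adjusted p = 0.498). Its null BLPs stood at 106 and 43.4 CPM against 29.1 and 35.8 CPM in control BLPs (1.20 ± 0.59, edgeR adjusted p = 0.591), and these overlapped without the largest cell of each library. Clspn, the adaptor of the checkpoint kinase Chk1, was at 11.8 and 12.3 CPM in control LMPPs and 56.9 and 21.0 CPM in control ALPs (1.69 ± 0.56, edgeR adjusted p = 0.430), and DESeq2 called this step (adjusted p = 0.0458). In null mice its ALPs had 24.4 and 46.9 CPM and its BLPs 127 and 89.4 CPM (1.60 ± 0.56, edgeR p = 0.0189, adjusted p = 0.755). Ccne2, an S phase cyclin, was at 8.85 and 5.51 CPM in control LMPPs, 51.1 (18217) and 4.63 CPM (18219) in null LMPPs, and 41.4 and 27.4 CPM in control ALPs (2.26 ± 0.88, edgeR adjusted p = 0.520). Ccne1, its relative, ran from 0.145 to 48.4 CPM.

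Dtl, which marks Cdt1 for destruction in S phase, stood at 187 and 104 CPM in null LMPPs and 248 and 298 CPM in null ALPs (0.91 ± 0.40, edgeR adjusted p = 0.581). Null ALPs also had more Dtl than control ALPs (244 and 103 CPM) without overlap (0.65 ± 0.40, edgeR adjusted p = 1), as did null BLPs (293 and 289 CPM) over control BLPs (221.5 and 168 CPM). Tipin, of the fork protection complex, was the gene second highest per kilobase (160 CPM per kb), with 141.5 to 323 CPM in LMPPs, 233 to 431 CPM in ALPs and 235 to 476.5 CPM in BLPs. For the rare transcripts 1 cell could hold most of the reads: 97.4% of Clspn and 93.7% of Ccne2 in the null LMPPs of mouse 18219, and 90.5% of Ccne1 in the control BLPs of mouse 18220. Over the 38 genes the median share held by the largest cell was 8.52% to 34.0% per library.

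Of 59 further replication genes outside the 38, which cover the origin recognition complex, remaining polymerase and RPA subunits, repair and histone supply, edgeR called 0 in every comparison, and DESeq2 called 5 in the control step from LMPP to ALP, 1 in the null step and 2 for null over control LMPP. Over all genes DESeq2 called 4.62%, 4.65% and 2.46% in either direction in these 3 comparisons. Their median log2 fold change from LMPP to ALP was 0.62 in control (52 higher, 7 lower) and 0.49 in null mice (51 higher, 8 lower), with 11 and 4 genes at an unadjusted p under 0.05, all higher (4.94% and 5.4% of all genes). Nasp, a histone chaperone, was at 98.7 and 99.4 CPM in control LMPPs, 215 and 183 CPM in control ALPs and 232 and 144.5 CPM in null LMPPs. That is 1.01 ± 0.24 for the control step (edgeR adjusted p = 0.219) and 0.93 ± 0.24 for null over control LMPPs (edgeR adjusted p = 0.628). Rpa1, the largest partner of Rpa2, was higher at 0.84 ± 0.23 in the control step (edgeR adjusted p = 0.324) and 0.74 ± 0.23 in null over control LMPPs (edgeR adjusted p = 0.698). For null over control, the 59 had medians of 0.19 (LMPP), 0.14 (ALP) and 0.08 (BLP). At an unadjusted p under 0.05, 5 were higher and 0 lower in LMPP (3.14% and 3.62% of all genes). In ALP these were 0 and 0 (2.51% and 1.99%), and in BLP 1 and 1 (4.33% and 4.5%). Without mouse 18217 the LMPP and BLP medians were −0.31 and −0.13. From ALP to BLP the 59 had a median of 0.18 in control (36 higher, 23 lower) and 0.19 in null mice (33 higher, 26 lower), where the 38 had 0.16 and −0.12.

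Genes of G2 and M phase, which act after replication, had medians farther from 0 in all but 1 of the comparisons given here, the null step from LMPP to ALP. All 27 were higher in control ALPs than control LMPPs (median 2.24), while in null mice 12 were higher and 15 lower (median −0.25). In null over control they were higher in 27 of 27 in LMPP (median 1.39), lower in 27 of 27 in ALP (−0.85) and higher in 27 of 27 in BLP (1.67). EdgeR called 0 of the 27 in each of these. At an unadjusted p under 0.05 it had 14, 0, 8, 0 and 9 higher in the order given, and 0 lower in each. Of all genes 4.94%, 5.4%, 3.14%, 2.51% and 4.33% were higher at that level. DESeq2 called 9, 0, 3, 0 and 4 of the 27, where it called 4.62%, 4.65%, 2.46%, 1.39% and 4.02% of all genes in either direction. Without mouse 18217 the LMPP median was 0.42 (18 higher, 9 lower), and without mouse 18218 the ALP median was −0.02 (13 higher, 14 lower). The median of the null step from LMPP to ALP turned to 0.14 without mouse 18217 and to 0.12 with thinned cells. The replication genes had medians of 0.27, 0.20 and 0.06 in the same 3 genotype comparisons. From ALP to BLP the 27 were lower in control (27 of 27, median −1.32) and higher in null mice (26 of 27, median 1.18), where the replication genes had medians of 0.16 and −0.12. These comparisons share libraries, and the difference between both lists was not tested.

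**Figure D4:**
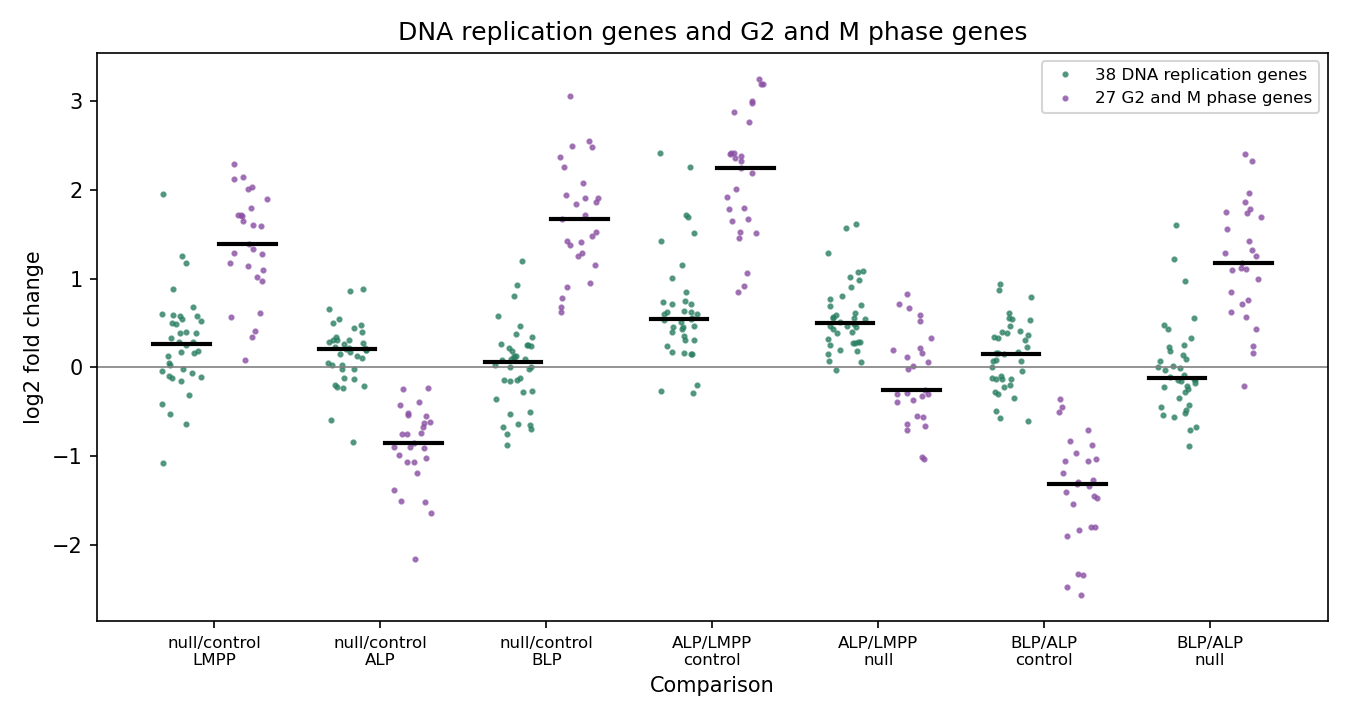
Log2 fold change (y axis) of each of the 38 DNA replication genes and of each of 27 G2 and M phase genes in 7 comparisons (x axis), with black bars at the medians. Replication gene medians lie between −0.12 and 0.55, whereas those of G2 and M phase genes run from −1.32 to 2.24 and change sign between populations.

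To compare single cells, each was thinned to 50000 counts and the replication genes with at least 1 read were counted. The median cell had 18 of 38, no cell had 0, and the highest number in a cell was 38. At least 10 were read in 462 of 561 cells (82.4%) and at least 20 in 263 (46.9%), and 123 cells had between 8 and 12, so the limit of 10 splits a continuous range. Without thinning, where the median cell had 1431484 nuclear counts, every cell had at least 10 (100%). In control LMPPs 78.7% and 68.1% of cells had at least 10 (mice 18218 and 18220), and in null LMPPs 91.1% and 63.8% (mice 18217 and 18219). In ALPs the shares were 93.2% and 72.5% in control and 97.5% and 80.95% in null mice, and in BLPs 82.4% and 62.9% in control and 97.2% and 80% in null mice. The exact binomial 95% interval of a share was as wide as 44.9% to 78.5% (control BLPs of mouse 18220), and it covers counting error only. As means over 2 mice the shares were 73.4% ± 7.52 and 77.5% ± 19.3 in control and null LMPPs, 82.9% ± 14.7 and 89.2% ± 11.7 in ALPs, and 72.6% ± 13.8 and 88.6% ± 12.2 in BLPs (SD, n = 2 each), so the genotype difference was below the larger SD in LMPP and ALP, and in BLP it was above it while the libraries overlapped.

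**Figure D5:**
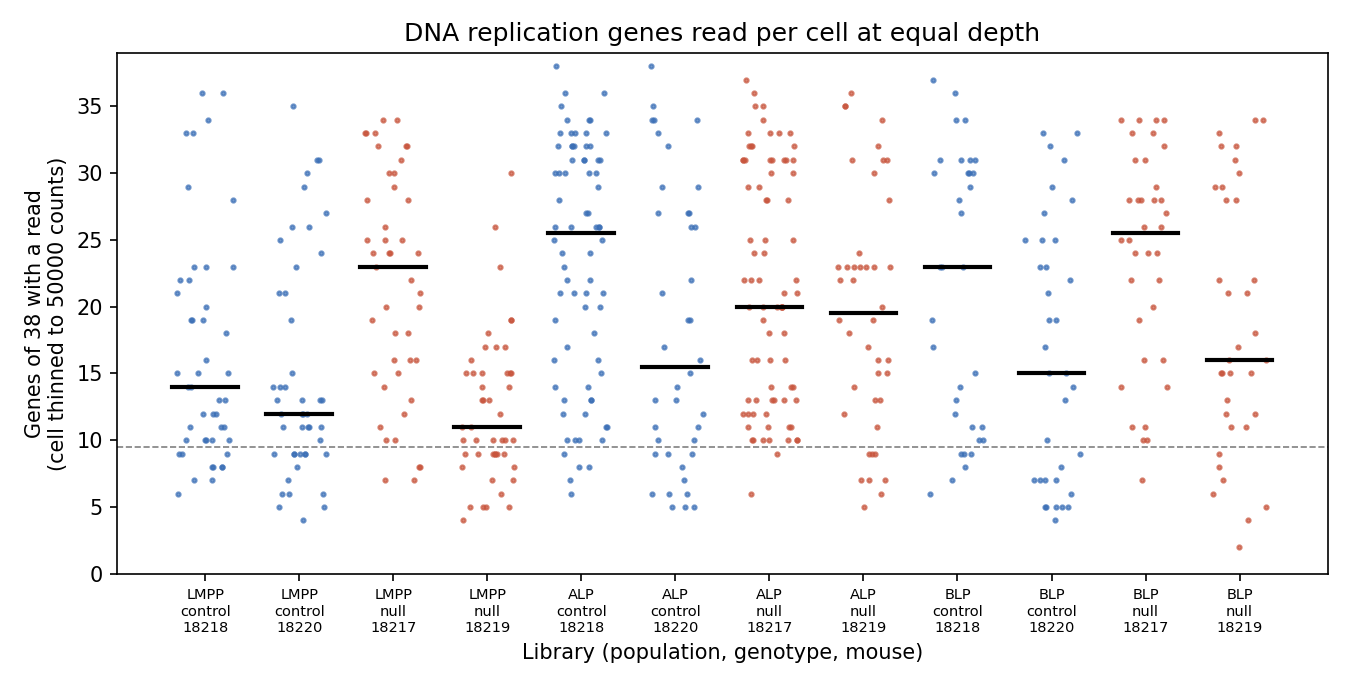
Number of the 38 DNA replication genes with at least 1 read (y axis) in each kept cell after thinning to 50000 counts, by library (x axis), with black bars at the medians and a dashed line under 10 genes. The null LMPP libraries have medians of 23 (mouse 18217) and 11 (mouse 18219), and cells spread from 2 to 38 genes.

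In each population the shares of mice 18217 and 18218 exceeded those of mice 18219 and 18220. Cells of 18217 and 18218 alternate in the column order of the deposited table, as do those of 18219 and 18220, and the sources used here do not say whether these pairs were handled together. Within the pairs, null minus control was 12.4 and −4.26 percentage points in LMPP, 4.23 and 8.45 in ALP, and 14.9 and 17.1 in BLP (pair of 18217 first). Median genes read at equal depth also differed between the pairs, with 4351 to 4958 in the 6 libraries of mice 18217 and 18218 and 3924 to 4324 in those of mice 18219 and 18220. The part of this in the shares was not tested.

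The higher limit of 20 genes, added after the data were seen, separated the null LMPPs most, with 60% of cells in mouse 18217 and 6.38% in mouse 18219 against 29.8% and 27.7% in control LMPPs. It gave 67.6% and 40% in control and 58.2% and 50% in null ALPs, and 52.9% and 40% in control and 72.2% and 42.9% in null BLPs. At this limit the BLP shares of the genotypes overlapped.

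Cells with at least 10 replication genes also had more RNA. Their median ratio of gene to spike-in counts was above that of the other cells in 12 of 12 libraries (1.06 to 2.05 times), as were their genes read at equal depth (1.05 to 1.42 times) and G2 and M phase genes read (12 of 12 libraries). Depth before thinning was higher in them in 7 of 12. Some of these medians rest on very few other cells. In mouse 18217, 35 of 36 null BLPs, 77 of 79 null ALPs and 41 of 45 null LMPPs had at least 10 genes, as did 69 of 74 control ALPs in mouse 18218. Cells with at least 10 genes of each list numbered 118, whereas 2 cells had at least 10 G2 and M phase genes without 10 replication genes. Cells with both made up 38.9% and 34.3% of null BLPs, 20.6% and 8.57% of control BLPs, 33.8% and 17.5% of control ALPs, 29.1% and 14.3% of null ALPs, 12.8% and 6.38% of control LMPPs, and 22.2% and 4.26% of null LMPPs.

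Over all 561 kept cells at equal depth, Mcm6 was read in 90.4%, Pcna in 86.45%, Rfc2 in 85.9% and Mcm7 in 83.6%, and Cdc6 in 27.1%, Chaf1a in 24.4% and Ccne1 in 12.7%. Within libraries, the Spearman correlation over cells between a gene's thinned count and the number of other replication genes read had a median of 0.54 over the 38 genes, from 0.29 (Fen1) to 0.68 (Lig1). For 8957 other genes read in a like share of cells the median was 0.06 and the 95th percentile 0.25. The cells compared share a library and, after thinning, a depth, but not an RNA content, so these values are a description. Mcm5 (0.66), Tipin (0.63) and Pola1 (0.63) followed Lig1, and Pold3 (0.30), Ccne1 (0.30) and Chaf1b (0.35) were nearest Fen1. By library the median was 0.45 to 0.61 except in the null LMPPs of mouse 18219, where it was 0.29.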

How the data were processed

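Single cells were sorted into wells and sequenced by a full-length protocol. Without molecular identifiers, each count stands for a read. The authors deposited whole-number counts per gene and cell, made with GSNAP and HTSeq 0.5.3p3 on mm10. These names are from the submitters' processing notes, and the sources used here do not give the annotation or strand setting. The 38 genes, the comparison lists and the limits were chosen with earlier results of these data known.

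Kept cells had 50000 or more nuclear counts, 1000 or more nuclear genes, and at most 20% mitochondrial and 50% spike-in counts. Spike-ins (6.13% of entries), unaligned (33.0%), featureless (11.6%) and ambiguous (6.08%) reads stayed out. No 2 cells had identical counts, and doublets were not called, since each well received a single cell. Counts were summed per mouse and population and compared with edgeR 4.0.16 (TMM, filterByExpr, glmQLFit and glmQLFTest, R 4.3.3) over 19903 genes in 1 fit of 6 groups (6 residual degrees of freedom, biological variation 86.9%), or over 21047 genes for populations summed (2 residual degrees of freedom), with Benjamini-Hochberg adjustment over all genes. SEs are the change divided by the root of the F statistic. On simulated null and control ALPs (19903 genes, 50 drawn at random from all of them and changed at each fold size) the test recovered 0% of 2-fold, 12% of 4-fold, 32% of 16-fold and 44% of 64-fold changes, with 1 false call. CPM uses TMM-scaled sizes. P-values rest on the spread of 2 mice per group.

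Named genes were those past the threshold, up to 4 per direction with the smallest p per comparison, and Mcm2 to Mcm7 and Pcna, with up to 3 of each further list. Others named had their values seen first. Alternatives were DESeq2 1.42.0, its size factors in edgeR, limma-voom (limma 3.58.1), no filter, thinned or all cells, each mouse left out, a replicate block and a population alone. Levels without the largest cell of each gene and library were added after seeing the data. The same mouse gave all 3 populations, so mouse numbers pair the libraries of the steps; deviations of libraries of 1 mouse correlated by 0.0295 to 0.0507. Gene positions are from the GENCODE annotation of GRCm38, and promoters from RefSeq on GRCm38.p6.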

Additional observations from a re-analysis of the deposited data

Results flagged for a closer look

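For Mcm6, a subunit of the replicative helicase, BLP minus ALP was above 0 in both control mice and below 0 in both null mice. Its level differed by 37 CPM (mouse 18218) and 51.7 CPM (18220) in control mice and by −332.9 CPM (18217) and −556.1 CPM (18219) in null mice. The signs were not particular to Mcm6, since Rfc4 and Ccne2 had the same ones. Rfc4 was at 114 and 54.9 CPM in control ALPs and 134 and 80.0 CPM in control BLPs. In null mice Rfc4 was at 150 and 162 CPM in ALPs and 113 and 102 CPM in BLPs. The share of all genes with these signs was not counted. On the log2 scale the control step was 0.077 ± 0.23 (edgeR adjusted p = 0.971), and control ALPs and BLPs overlapped without the largest cell of each library, so a control rise was not measured. The null step did not pass either (edgeR adjusted p = 0.674). The edgeR test of the difference between genotypes did not pass (−0.96 ± 0.33 on the log2 scale, p = 0.0189, adjusted p = 0.776, and adjusted p = 0.300 to 1.00 over the alternatives), and it was −0.14 with thinned cells.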

How the results depend on the processing

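Of 904 alternatives to 76 tests of named genes, 873 kept direction and side of the threshold, 2 gained a call, 6 lost one and 23 turned direction, 18 of them on leaving out a mouse. The cause was not tested in any of these. Called members at the control LMPP to ALP step numbered 2 with DESeq2 (which called 545 of all genes higher and 375 lower, against 35 and 19 by edgeR), 0 with mouse as a replicate block, 0 on dropping the ALPs of mice 18219 and 18220 (added after seeing the data) and 0 to 0 on leaving out a mouse; DESeq2 called 1 for null over control LMPP. The paired fit with the replicate block changed no other call. The column-order pair block, also added later, called 0 members.

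Leaving out each mouse, the median log2 fold changes ran from −0.41 to 0.64 (null over control LMPP), −0.16 to 0.24 (BLP), −0.018 to 0.29 (populations summed), 0.31 to 0.83 (control LMPP to ALP), −0.043 to 1.35 (null LMPP to ALP), −0.083 to 0.44 (control ALP to BLP), −0.39 to 0.20 (null ALP to BLP), −0.67 to 0.80 (genotype effect, ALP minus LMPP) and −0.45 to 0.12 (BLP minus ALP). With thinned cells, and on dropping the ALPs of mice 18219 and 18220, medians became −0.070 and −0.12 (null over control ALP), −0.086 and −0.11 (control ALP to BLP) and 0.24 and 0.19 (BLP minus ALP), and 0.083 and 0.019 (null ALP to BLP).

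As a mean over cells, group means of the summed level became 4208 CPM (control LMPP), 6219 and 6122 (control and null ALP), and 5752 and 6276 (control and null BLP). Control ALPs were thus above null ALPs and null BLPs above control BLPs, both the reverse of the main setting. Without TMM the mean of control BLPs was 6650 CPM. Without each gene's largest cell the means were 3549 (control LMPP), 4999 (control BLP) and 5230 CPM (null BLP). Shares of cells, in the order control and null LMPP, control and null ALP, control and null BLP, were 39.4%, 55.9%, 64.1%, 68.1%, 58.0% and 73.1% at 15 genes and 28.7%, 33.2%, 53.8%, 54.1%, 46.5% and 57.5% at 20 genes. At 5 genes they were 98.9%, 98.9%, 100% and 98.6% (control and null LMPP, control ALP, control BLP), and 100% in every group without thinning. With 2 reads required the shares were 57.4% and 62.3% (control and null LMPP), 74.4% and 73.6% (ALP), and 62.4% and 75.9% (BLP). Thinned to 20000 counts they were 59.6%, 66.7%, 75.6%, 73.7%, 63.95% and 74.5% in the same order. In both settings control ALPs were thus slightly above null ALPs, the reverse of the main setting. At 200000 counts the shares were 97.9% (both LMPP groups) and 91.4% (control BLP).

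Directions turned on dropping the ALPs of mice 18219 and 18220 for Chaf1b (−0.11) and Rpa2 (−0.044) in null over control ALP and Rfc4 (0.22, and 0.36 with thinned cells) at the control LMPP to ALP step, and with the replicate block for Rfc5 (0.057) at the null step. Leaving out a mouse turned null over control for Ccne2 (−0.64 to 2.82), Lig1 (−1.33 to 0.12) and Mcm10 (−1.96 to 0.17) in LMPP, Cdc45 (−0.71 to 0.52) and Pola2 (−0.59 to 0.30) in ALP, and Pola2 (−0.57 to 0.0029) and Tipin (−0.29 to 0.060) in populations summed. It also turned Rfc2 (−0.63 to 0.057) and Rfc4 (−1.23 to 0.76) at the control LMPP to ALP step, Rfc5 (−0.51 to 0.53) at the null one, Cdt1 (−0.20 to 1.35) and Pole (−0.10 to 0.97) from ALP to BLP, and the genotype effect of Ccne2 (−2.53 to 0.97) and Mcm4 (−0.69 to 0.14) in ALP minus LMPP and of Gins1 (−0.88 to 1.20) in BLP minus ALP. In simulated null and control ALPs of this depth and spread, edgeR recovered 0%, 12%, 32% and 44% of genes changed 2-, 4-, 16- and 64-fold, so most large differences would also be missed, and a count of 0 calls does not show that genes did not differ.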
